A study of Homo sapiens with 9 samples.

Results

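NOG encodes noggin, a secreted protein that binds bone morphogenetic proteins (BMPs) and keeps them from their receptors. BMPs signal through paired type I and type II receptor kinases, which phosphorylate SMAD1, SMAD5 and SMAD9. These enter the nucleus with SMAD4 and switch on a small set of early target genes, of which ID1, ID2 and ID3 are the usual readouts and SMAD6 and SMAD7 act as feedback brakes. In breast cancer cells the pathway is known for its effects on differentiation, invasion and dormancy.

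The 10 genes described here were NOG, a second antagonist gene (FST), a ligand gene (BMP4), receptor genes (BMPR1A and BMPR2), inhibitory SMAD genes (SMAD6 and SMAD7) and the readouts ID1, ID2 and ID3, out of 60719 genes in the deposited table. They were found by symbol through their Ensembl identifiers, and all 10 were present once. NOG was chosen by its own measured values, its higher TPM with TIS sEV in these same libraries, so its values are a description and carry no test. The other 9 were chosen for their place in the pathway. The question put to them was whether the ID genes follow the antagonist.

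The cells were MDA-MB-231, an established human triple-negative breast cancer line with a mesenchymal character, labelled wild type, and all 3 groups were kept in 5% vesicle-depleted medium for 72 h. TIS sEV cells received small extracellular vesicles from MDA-MB-231 donors made senescent with nocodazole, a microtubule poison, at 100 ng/ml for 72 h, followed by a further 72 h in vesicle-depleted medium. Cont sEV cells received vesicles from donors that, as the protocol is read here, had DMSO alone, and No sEV cells received none. Vesicles were obtained by differential centrifugation, so other material that sediments with them was present too, and senescence of the donors and any other action of nocodazole on them cannot be told apart. There were 3 libraries per group. The labels do not say whether they were separate cultures, so the spread behind each p-value is that between libraries and may be technical.

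Levels are gene TPM (transcripts scaled to a fixed total), which sum to 1000000 in each library and keep no read depth. Between 21292 and 21975 genes per library were above 0, and pairs of libraries had Pearson's r of 0.991 to 0.994 in the same group and 0.992 to 0.994 across groups. VIM, CD44, AXL and CAV1, markers of the line, were at 2206 to 2299, 428 to 514, 278 to 304 and 130.03 to 144 TPM. In TIS sEV cells VIM and CD44 lay above both other groups without overlap, and AXL and CAV1 above Cont sEV alone. None of them passed the test (limma, CD44 adjusted p = 0.228 vs Cont sEV and 0.271 vs No sEV). Such a higher level was found for 10.9% of all tested genes in TIS sEV vs Cont sEV and 11.3% in TIS sEV vs No sEV. The hormone receptor genes ESR1 and PGR and the epithelial cadherin gene CDH1 were near 0, at no more than 0.220, 0.0502 and 0.577 TPM. ERBB2 (26.2 to 30.7 TPM) and EPCAM (21.1 to 25.9 TPM) were not absent. Of markers of other cells, the leukocyte gene PTPRC was at 0.125 to 1.41 TPM. Its means were 0.669 ± 0.430 TPM in TIS sEV cells, 0.159 ± 0.0358 in Cont sEV cells and 0.705 ± 0.613 in No sEV cells (SD, n = 3 each). At this low level PTPRC was not tested. The endothelial gene PECAM1 was at 1.45 ± 0.111 TPM in TIS sEV cells, 2.07 ± 0.0764 in Cont sEV cells and 1.83 ± 0.0481 in No sEV cells (SD, n = 3 each). None of its groups overlapped, and the share of all genes with all 3 groups apart was not counted. Of all tested genes, 4.47% lay lower without overlap in TIS sEV vs Cont sEV, 2.77% lower in TIS sEV vs No sEV and 6.72% higher in Cont sEV vs No sEV. PECAM1 did not pass the test in TIS sEV vs Cont sEV (limma, adjusted p = 0.291). The part of PTPRC or PECAM1 in the results below was not tested.

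The start-site windows of ID1, ID2 and ID3 are shown because these genes are the pathway's usual readouts. Elements through which BMPs act on such genes can lie farther upstream, outside these windows. SMAD proteins bind the letters GTCT (AGAC on the other strand), and BMP-activated SMADs also bind GGCGCC. Each window runs from 250 bases before to 50 bases after the RefSeq start site (GRCh38.p14), 5′ to 3′ on the gene's strand, and capitals mark GTCT and AGAC. ID1 lies at chr20:31605039-31605338 on the plus strand, ID2 at chr2:8681806-8682105 on the plus strand and ID3 at chr1:23559452-23559751 on the minus strand.
ID1: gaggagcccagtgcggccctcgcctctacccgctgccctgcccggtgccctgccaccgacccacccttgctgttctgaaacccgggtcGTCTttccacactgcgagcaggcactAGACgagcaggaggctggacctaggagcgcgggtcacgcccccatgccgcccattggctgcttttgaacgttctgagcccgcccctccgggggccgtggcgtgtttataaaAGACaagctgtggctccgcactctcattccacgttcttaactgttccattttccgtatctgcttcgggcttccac
ID2: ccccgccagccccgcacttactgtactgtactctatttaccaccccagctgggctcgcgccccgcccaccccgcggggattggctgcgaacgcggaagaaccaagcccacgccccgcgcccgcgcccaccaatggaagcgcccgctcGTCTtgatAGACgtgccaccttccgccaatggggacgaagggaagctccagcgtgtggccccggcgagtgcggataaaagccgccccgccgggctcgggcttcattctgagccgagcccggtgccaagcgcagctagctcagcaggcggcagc
ID3: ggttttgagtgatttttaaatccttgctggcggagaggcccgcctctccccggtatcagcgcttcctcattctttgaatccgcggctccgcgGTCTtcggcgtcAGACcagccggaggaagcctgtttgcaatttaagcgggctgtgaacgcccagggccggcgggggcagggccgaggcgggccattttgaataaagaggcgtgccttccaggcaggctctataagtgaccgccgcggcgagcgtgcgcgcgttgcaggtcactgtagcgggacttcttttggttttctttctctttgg

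GTCT or AGAC occurred 3 times in the ID1 window and 2 times each in those of ID2 and ID3, and 84% of 35116 RefSeq windows of this length hold at least 1. A GTCT followed by an AGAC lay 4 bases apart in ID2, 8 in ID3 and 22 in ID1. A gap of at most 8 bases, a limit chosen after these windows were seen, occurred in 2.49% of all windows. GGCGCC, which reads the same on both strands, was in none of the 3 windows and in 19.2% of all windows. These matches describe the letters only. Windows were found for 9 of the 10 genes, all but NOG.

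The antagonist genes stood highest in the set. Mean TPM over the 9 libraries was 86.8 for FST, 64.4 for NOG, 54.6 for BMP4, 18.9 for BMPR1A, 11.02 for BMPR2, 8.12 for ID1, 5.47 for SMAD7, 3.505 for ID3, 2.08 for SMAD6 and 1.83 for ID2. This order of neighbours held in 9 of 9 libraries down to SMAD6, whose level was above that of ID2 in 4 of 9. NOG was thus above BMP4, a ligand gene whose product noggin binds, in 9 of 9 libraries. The NOG to BMP4 ratio of TPM was 1.218, 1.5 and 1.444 in TIS sEV libraries, 1.088, 1.006 and 1.005 in Cont sEV libraries and 1.114, 1.191 and 1.116 in No sEV libraries. Its numerator holds the values NOG was chosen by, so its higher level in TIS sEV libraries is no separate result, and BMP4 itself overlapped between TIS sEV and both other groups.

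**Figure D1:**
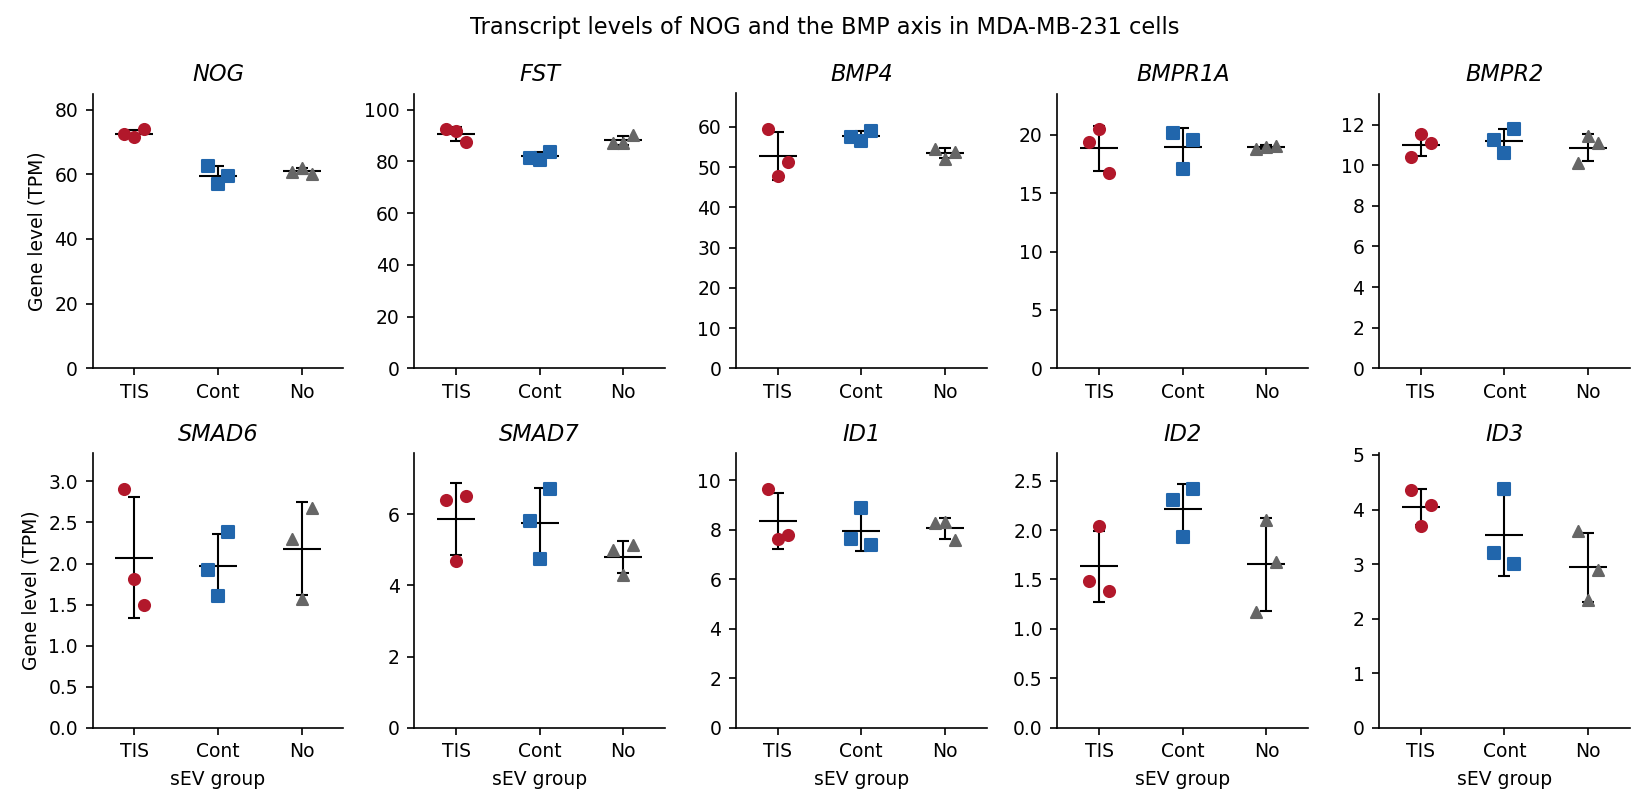
Gene level in TPM (vertical axes from 0) of the 10 BMP axis genes in each library, with TIS sEV, Cont sEV and No sEV from left to right; horizontal lines are means and bars 1 SD (n = 3). NOG is at 71.6 to 73.9 TPM in TIS sEV cells and at 56.9 to 62.5 TPM in the other 6 libraries, while the ID1 and SMAD6 levels overlap between all groups.

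NOG (ENSG00000183691.6) is a protein-coding gene on chromosome 17, from 56593699 to 56595590 on the plus strand of GRCh38 in GENCODE 29. It was at 72.3, 71.6 and 73.9 TPM in TIS sEV cells, at 62.5, 56.9 and 59.4 TPM in Cont sEV cells, and at 60.8, 62.0 and 60.05 TPM in No sEV cells. The lowest TIS sEV library was thus above the highest of the other 6, while Cont sEV and No sEV overlapped. Group means were 72.6 ± 1.196 TPM in TIS sEV cells, 59.6 ± 2.83 in Cont sEV cells and 60.9 ± 0.986 in No sEV cells (SD, n = 3 each), so NOG was 1.22 times its Cont sEV level and 1.19 times its No sEV level. On the log2(TPM + 1) scale, which understates changes of low genes, the difference was 0.28 (SE 0.04) in TIS sEV vs Cont sEV, 0.25 (SE 0.04) in TIS sEV vs No sEV and -0.03 (SE 0.04) in Cont sEV vs No sEV. In bulk RNA, more cells with NOG transcripts and more transcripts per cell cannot be told apart. These comparisons share libraries and are not independent of each other. Over the alternatives tried, the first ranged from 0.249 to 0.316 and the second from 0.215 to 0.261. With mitochondrially encoded genes left out, whose share of TPM was 2.07 to 2.52% with TIS sEV against 2.58 to 3.39% with Cont sEV, the first was 0.270. The median over all 13879 tested genes was 0.0203 in TIS sEV vs Cont sEV and 0.0320 in TIS sEV vs No sEV.

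FST (ENSG00000134363.12; chromosome 5, from 53480409 to 53487134) encodes follistatin, which binds activins most tightly and some BMPs as well. It was at 92.4, 91.6 and 87.5 TPM in TIS sEV cells, 81.4, 80.7 and 83.7 TPM in Cont sEV cells, and 87.1, 87.0 and 90.1 TPM in No sEV cells. The Cont sEV libraries were the ones apart, below the other 6, and TIS sEV and No sEV overlapped. The log2 fold change was 0.14 (95% interval 0.0679 to 0.215, limma, adjusted p = 0.214) in TIS sEV vs Cont sEV, 0.04 (adjusted p = 0.809) in TIS sEV vs No sEV and -0.10 (adjusted p = 0.789) in Cont sEV vs No sEV, so FST did not pass in any of them. The difference between the patterns of FST and NOG was not tested.

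BMP4 (ENSG00000125378.16; chromosome 14, from 53949736 to 53958761, minus strand) encodes a BMP ligand that noggin binds. Its levels were 59.4, 47.7 and 51.2 TPM in TIS sEV cells, 57.5, 56.5 and 59.04 TPM in Cont sEV cells, and 54.6, 52.1 and 53.8 TPM in No sEV cells. TIS sEV replicate 1 held the highest value of all 9 libraries and TIS sEV replicates 2 and 3 the lowest, so TIS sEV overlapped both other groups, while Cont sEV lay above No sEV. The log2 fold change in TIS sEV vs Cont sEV was -0.13 (95% interval -0.282 to 0.0167, limma, adjusted p = 0.561), with -0.219 without TIS sEV replicate 1 (adjusted p = 0.184) and -0.0643 without TIS sEV replicate 2 (adjusted p = 0.815). In Cont sEV vs No sEV it was 0.11 (adjusted p = 0.868).

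The receptor genes BMPR1A, for a type I receptor, and BMPR2, for a type II receptor, were at similar means in all groups. BMPR1A was at 19.4, 20.5 and 16.7 TPM in TIS sEV cells, 20.1, 17.1 and 19.6 in Cont sEV cells and 18.8, 19.0 and 19.1 in No sEV cells. BMPR2 was at 10.4, 11.5 and 11.1 TPM in TIS sEV cells, 11.2, 10.6 and 11.8 in Cont sEV cells and 10.1, 11.4 and 11.1 in No sEV cells. All groups overlapped for both genes. In TIS sEV vs Cont sEV the 95% interval of the log2 fold change was -0.185 to 0.171 for BMPR1A and -0.175 to 0.129 for BMPR2 (limma, adjusted p = 0.988 and 0.944).

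The inhibitory SMAD genes are both targets and brakes of the pathway: SMAD6 acts mainly on BMP signals, and SMAD7 on BMP and TGF-β signals. SMAD6 was at 2.91, 1.81 and 1.501 TPM in TIS sEV cells, 1.92, 1.60 and 2.39 in Cont sEV cells and 2.301, 1.56 and 2.68 in No sEV cells, with full overlap. Its log2 fold change in TIS sEV vs Cont sEV was 0.03 (95% interval -0.402 to 0.463, limma, adjusted p = 0.978), and -0.156 without TIS sEV replicate 1. SMAD7 was at 6.40, 4.69 and 6.505 TPM in TIS sEV cells, 5.79, 4.73 and 6.705 in Cont sEV cells and 4.99, 4.295 and 5.13 in No sEV cells. In both vesicle groups 2 of 3 libraries lay above all No sEV libraries, and the other one lay within their range. The SMAD7 log2 fold change was 0.03 (adjusted p = 0.975) in TIS sEV vs Cont sEV, 0.23 (95% interval -0.0733 to 0.540, adjusted p = 0.710) in TIS sEV vs No sEV and 0.21 (adjusted p = 0.880) in Cont sEV vs No sEV. The TIS sEV vs No sEV value was 0.363 without TIS sEV replicate 2, and the Cont sEV vs No sEV value was 0.320 without Cont sEV replicate 2 and 0.106 without Cont sEV replicate 3.

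The ID genes encode helix-loop-helix proteins without a DNA-binding region, which hold E proteins away from DNA and so slow differentiation. ID1 (ENSG00000125968.9; chromosome 20, from 31605283 to 31606515), the highest of the 3, was at 9.64, 7.64 and 7.78 TPM in TIS sEV cells, 7.62, 8.89 and 7.38 in Cont sEV cells and 8.27, 8.32 and 7.57 in No sEV cells. The groups overlapped throughout. The log2 fold change in TIS sEV vs Cont sEV was 0.06 (95% interval -0.160 to 0.278, limma, adjusted p = 0.892), and -0.0377 without TIS sEV replicate 1. In TIS sEV vs No sEV it was 0.04 (95% interval -0.178 to 0.260, adjusted p = 0.942).

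ID2 (ENSG00000115738.10; chromosome 2, from 8678845 to 8684453) was the lowest of the 10 genes, at 1.48, 2.04 and 1.38 TPM in TIS sEV cells, 2.299, 1.93 and 2.42 in Cont sEV cells and 1.17, 2.11 and 1.68 in No sEV cells. Of the TIS sEV libraries replicate 2, and of the No sEV libraries also replicate 2, lay within the range of Cont sEV. The log2 fold change was -0.29 (95% interval -0.642 to 0.0540, limma, adjusted p = 0.583) in TIS sEV vs Cont sEV, -0.00404 (adjusted p = 0.998) in TIS sEV vs No sEV and 0.29 (adjusted p = 0.839) in Cont sEV vs No sEV. The last was 0.153 without No sEV replicate 1. At levels this close to the filter of 1 TPM the intervals are wide.

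ID3 (ENSG00000117318.9; chromosome 1, from 23557918 to 23559794, minus strand) was at 4.36, 3.695 and 4.08 TPM in TIS sEV cells, 3.199, 4.38 and 3.003 in Cont sEV cells and 3.598, 2.34 and 2.89 in No sEV cells. TIS sEV lay above No sEV without overlap and overlapped Cont sEV, where replicate 2 held the highest value of all. The log2 fold change was 0.17 (95% interval -0.157 to 0.491, limma, adjusted p = 0.759) in TIS sEV vs Cont sEV and 0.37 (95% interval 0.0420 to 0.690, adjusted p = 0.588) in TIS sEV vs No sEV. It did not pass in either. The TIS sEV vs Cont sEV value was 0.297 without Cont sEV replicate 2 and 0.0844 without Cont sEV replicate 3. The summed TPM of ID1, ID2 and ID3 was 15.5, 13.4 and 13.2 in TIS sEV cells, 13.1, 15.2 and 12.8 in Cont sEV cells and 13.05, 12.8 and 12.1 in No sEV cells.

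**Figure D2:**
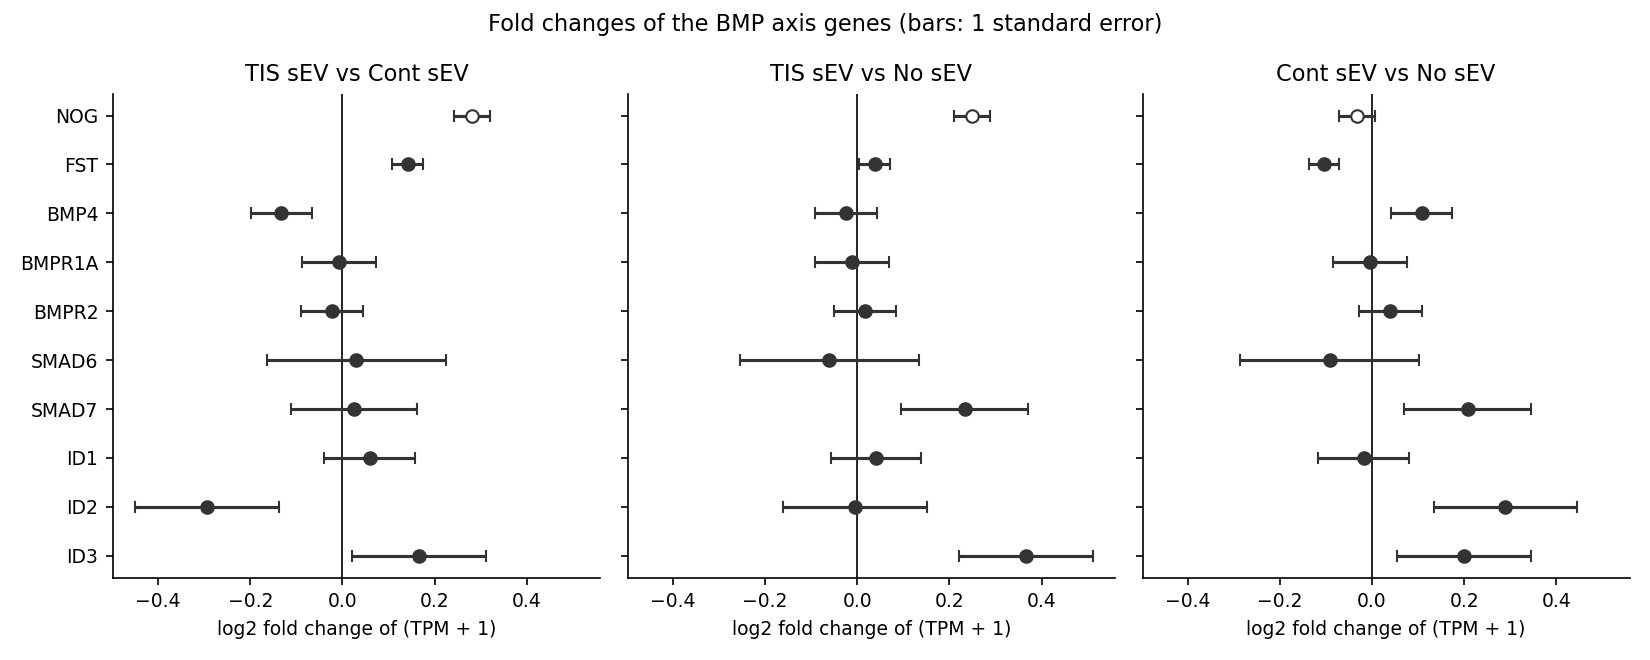
Log2 fold change of (TPM + 1) of the 10 genes in TIS sEV vs Cont sEV, TIS sEV vs No sEV and Cont sEV vs No sEV, with bars of 1 standard error from the fit over all 9 libraries; the open circle marks NOG, which carries no test. NOG stands at 0.28 and 0.25 in the panels with TIS sEV, ID2 at -0.29 in the first panel and ID3 at 0.37 in the second, while ID1 stays within 0.06 of 0 in all panels.

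Beside NOG, 0 of the 9 other genes passed in any comparison (limma, Benjamini-Hochberg over all genes). The share of all 13879 tested genes that passed was 0.0937% in TIS sEV vs Cont sEV (0.0432% higher and 0.0504% lower), 0.00721% in TIS sEV vs No sEV and 0% in Cont sEV vs No sEV, so a count of 0 among 9 is near that background. Unadjusted p was under 0.05 for 1 of the 9 in each comparison, FST in TIS sEV vs Cont sEV and in Cont sEV vs No sEV, and ID3 in TIS sEV vs No sEV. Of all genes, 10% in TIS sEV vs Cont sEV, 7.97% in TIS sEV vs No sEV and 6.03% in Cont sEV vs No sEV had such a p. NOG was chosen by its higher level with TIS sEV, so its lack of overlap there is no separate result. Of the 9 others, FST alone did not overlap in TIS sEV vs Cont sEV (15.4% of all genes, 10.9% higher and 4.47% lower). In TIS sEV vs No sEV it was ID3 alone (14.1% of all genes, 11.3% higher and 2.77% lower). In Cont sEV vs No sEV, BMP4 lay higher (6.72% of all genes) and FST lower (4.47%).

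Whether the readouts follow NOG from library to library was examined without TIS sEV, because NOG splits the libraries into those 3 and the other 6, and a pooled correlation would only repeat the group difference. Over the 6 Cont sEV and No sEV libraries, r with NOG was -0.414 for ID1 (Spearman's rho -0.0286), 0.0508 for ID2 (rho 0.0857) and -0.691 for ID3 (rho -0.371). None passed in exact permutation tests of these 3 relations (Pearson p = 0.432, 0.921 and 0.125, adjusted p = 0.648, 0.921 and 0.375; Spearman adjusted p = 1 for each). With only 6 libraries, in which NOG ran from 56.9 to 62.5 TPM, these tests can miss a relation and do not decide the question. Without the 2 of these 6 libraries with the most extreme NOG level, r was 0.909 for ID1, -0.188 for ID2 and -0.486 for ID3. The ID1 and ID2 values thus changed sign, and so few libraries fix none of them well. The TIS sEV libraries, with the highest NOG levels, held the highest ID1 level (replicate 1) and otherwise ID1 levels among those of the other groups, ID3 levels of 3.695 TPM and above, and ID2 levels of 2.04 TPM and below.

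**Figure D3:**
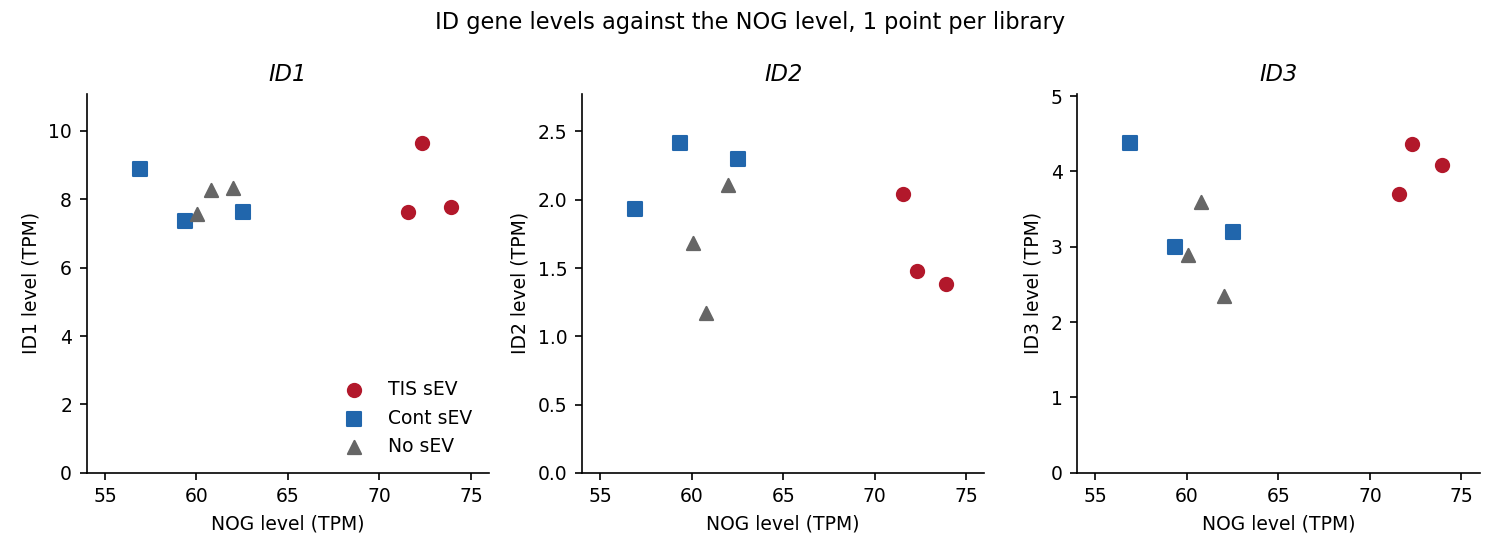
Level in TPM of ID1, ID2 and ID3 (vertical axes from 0) against the NOG level in TPM (horizontal axis from 54 to 76), 1 point per library, for TIS sEV (circles), Cont sEV (squares) and No sEV (triangles). The TIS sEV points lie apart at 71.6 to 73.9 TPM of NOG, and their ID1 levels of 7.64 to 9.64 TPM overlap the 7.38 to 8.89 TPM of the other libraries.

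Among ID1, ID2, ID3, SMAD6 and SMAD7, 0 of 10 pairs passed over the 9 libraries (exact permutation test, smallest unadjusted p = 0.171). The pair of ID1 and ID3 had r = 0.502 (Spearman's rho 0.567, exact permutation p = 0.171 for r and 0.121 for rho, adjusted p = 0.776 and 0.673), and r = -0.193 without the 2 libraries of most extreme ID1 level, so it rests on those. SMAD6 and SMAD7 had r = 0.374 (rho 0.367, exact permutation p = 0.311 and 0.336, adjusted p = 0.776 and 0.673), and 0.326 without the 2 libraries of most extreme SMAD6 level. ID2 and ID3 had r = -0.468 (rho -0.450, exact permutation p = 0.202 and 0.230, adjusted p = 0.776 and 0.673) and -0.455 without the 2 libraries of most extreme ID2 level. For deviations from the group means, r was -0.876 for ID2 and ID3, 0.566 for ID1 and ID3 and 0.561 for SMAD6 and SMAD7. These within-group values were not tested.

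Genes whose pattern over the 9 libraries was most like that of NOG, among 10493 others with a mean of at least 5 TPM, were GATA6 (r = 0.987), DUSP5 (0.964), CKAP5 (0.961), EFEMP1 (0.960) and VIM (0.958). NOG was chosen by its higher level with TIS sEV, so r with it over all 9 libraries in large part repeats that group difference. The values are descriptions and carry no p. They do not show whether a gene follows NOG from library to library. GATA6, a transcription factor gene, was at 9.90, 9.99 and 10.05 TPM in TIS sEV cells, 9.28, 8.51 and 8.68 in Cont sEV cells and 8.93, 9.04 and 8.91 in No sEV cells. Like NOG, it had its lowest value in Cont sEV replicate 2. DUSP5, which encodes a phosphatase of ERK, was at 158 ± 1.65 TPM in TIS sEV cells, 149 ± 2.81 in Cont sEV cells and 149 ± 2.45 in No sEV cells (SD, n = 3 each). In the same order by likeness to NOG, FST stood at rank 1116 (r = 0.655), ID1 at 5998 (0.128) and BMP4 at 9576 (-0.405). Among the genes most like ID1 were ENSG00000287839 (r = 0.984), PUS7L (0.922), PREP (0.912) and NAA80 (0.909), while NOG stood at rank 3032.

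The rest of the pathway was taken from lists by role. SMAD6, SMAD7, SMAD9 and BAMBI stand both among the target genes and in another list. With the 10 above, the lists held 69 different genes in all. Of these, 41 reached 1 TPM in 3 or more libraries and so were tested, and 28 did not, among them BMP7, GDF2, CER1, RGMA and DLX5, which are listed at 0 in all 9 libraries. Leaving NOG aside, 0 of the 40 tested genes passed in any comparison (limma, smallest adjusted p = 0.214 in TIS sEV vs Cont sEV, 0.499 in TIS sEV vs No sEV and 0.789 in Cont sEV vs No sEV). The median log2 fold change of the 41, NOG included, was 0.00900, 0.0214 and 0.0195 in these comparisons, beside 0.0203, 0.0320 and 0.0110 over all genes.

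Among the antagonists, 8 of 16 were tested. FSTL1, which encodes a follistatin-like secreted protein, was at 125 ± 1.96 TPM in TIS sEV cells, 121 ± 1.404 in Cont sEV cells and 123 ± 2.75 in No sEV cells (SD, n = 3 each), and the BMP-binding NBL1 was at 83.3 ± 2.63, 79.1 ± 1.95 and 81.6 ± 4.66 TPM in the same groups. TWSG1, whose product can help or hinder BMPs, was at 57.3 ± 2.64, 56.9 ± 1.99 and 57.6 ± 1.18 TPM. In TIS sEV vs Cont sEV, the mean was higher for 6 of the 8, NOG among them, beside 59.6% of all tested genes. The median of their log2 fold changes was 0.06 beside 0.0203 over all genes. Both the count and the median hold NOG, which was chosen by its higher level with TIS sEV, so neither is a result apart from that choice. The summed TPM of all 16 antagonists was 475, 485 and 484 in TIS sEV cells, 455, 443 and 454 in Cont sEV cells and 469, 451 and 470.3 in No sEV cells. These sums hold NOG, which was chosen for its level with TIS sEV. Without NOG they were 403, 413 and 410.1 in TIS sEV cells, 393, 386 and 395 in Cont sEV cells and 408, 389 and 410.3 in No sEV cells, so TIS sEV overlapped No sEV and lay above Cont sEV. Of all tested single genes, 10.9% lay higher without overlap in TIS sEV vs Cont sEV. No such share was counted for sums of genes, and the difference in the sums was not tested.

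Of 13 BMP and GDF ligands, 3 were tested. Besides BMP4 they were low: BMP2 was at 3.65 ± 0.407 TPM in TIS sEV cells, 3.37 ± 0.212 in Cont sEV cells and 3.69 ± 0.233 in No sEV cells, and BMP8B at 1.72 ± 0.112, 1.62 ± 0.229 and 1.59 ± 0.0373 TPM. BMP6, under the filter, was at 0.729 to 1.105 TPM over the 9 libraries. The activin subunit gene INHBA, whose product follistatin binds, was at 61.7, 55.95 and 56.6 TPM in TIS sEV cells, 52.5, 51.7 and 54.1 in Cont sEV cells and 51.3, 50.5 and 54.3 in No sEV cells. The TIS sEV libraries of INHBA lay above the other 6, without passing the test. Of all tested genes, 10.9% lay higher without overlap in TIS sEV vs Cont sEV and 11.3% in TIS sEV vs No sEV. The INHBA log2 fold change was 0.13 (SE 0.05, limma, adjusted p = 0.370) in TIS sEV vs Cont sEV and 0.15 (SE 0.05, adjusted p = 0.499) in TIS sEV vs No sEV. INHBB was at 5.31 ± 0.588, 4.54 ± 0.312 and 4.68 ± 0.352 TPM in TIS sEV cells, Cont sEV and No sEV.

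Of 12 receptor and co-receptor genes, 8 were tested. RGMB, a membrane-anchored BMP co-receptor, was the highest of them, at 62.3, 66.8 and 65.9 TPM in TIS sEV cells, 60.004, 55.99 and 60.6 in Cont sEV cells and 60.5, 61.9 and 63.6 in No sEV cells. TIS sEV lay above Cont sEV, as for 10.9% of all tested genes, and overlapped No sEV. The log2 fold change of RGMB in TIS sEV vs Cont sEV was 0.14 (95% interval 0.0460 to 0.236, limma, adjusted p = 0.301). The type I receptor gene ACVR1 was at 13.5 ± 0.368 TPM in TIS sEV cells, 13.6 ± 0.857 in Cont sEV cells and 13.3 ± 0.290 in No sEV cells. BAMBI, a decoy receptor and itself a BMP target, was at 8.42 ± 0.397, 8.35 ± 0.603 and 8.64 ± 0.0962 TPM in these groups.

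Of the 4 signal-carrying SMAD genes, 3 were tested and 0 passed. In TIS sEV vs Cont sEV the mean was higher for 0 of the 3, beside 59.6% of all tested genes, and in TIS sEV vs No sEV for 1 of the 3 (SMAD5), beside 66.7%. SMAD4, the shared partner, was at 52.8, 52.7 and 49.9 TPM in TIS sEV cells, 56.9, 56.6 and 57.5 in Cont sEV cells and 52.3, 52.8 and 57.96 in No sEV cells. Here TIS sEV lay below Cont sEV, as for 4.47% of all tested genes. The SMAD4 log2 fold change in TIS sEV vs Cont sEV was -0.14 (95% interval -0.234 to -0.0361, limma, adjusted p = 0.3498). SMAD5 was at 37.1 ± 0.313 TPM in TIS sEV cells, 39.6 ± 2.49 in Cont sEV cells and 35.2 ± 0.708 in No sEV cells, and SMAD1 at 6.62 ± 1.46, 6.93 ± 0.191 and 7.52 ± 0.398 TPM. For SMAD5 none of the 3 groups overlapped another, and the share of all genes with all 3 groups apart was not counted. Of all tested genes, 4.47% lay lower without overlap in TIS sEV vs Cont sEV, 11.3% higher in TIS sEV vs No sEV and 6.72% higher in Cont sEV vs No sEV. In Cont sEV vs No sEV the SMAD5 log2 fold change was 0.16 (SE 0.05, limma, adjusted p = 0.789).

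All 7 intracellular inhibitor genes were tested. SMURF2, a ubiquitin ligase for SMADs and receptors, was at 220.01 ± 2.48 TPM in TIS sEV cells, 211 ± 8.98 in Cont sEV cells and 209 ± 5.20 in No sEV cells. The TIS sEV libraries of SMURF2 lay above the other 6 (limma, adjusted p = 0.586 vs Cont sEV and 0.626 vs No sEV). SKI, a repressor that binds SMADs, was at 23.1 ± 0.868, 21.6 ± 0.673 and 21.8 ± 0.172 TPM in these groups. Its TIS sEV libraries lay above No sEV (limma, adjusted p = 0.695) and overlapped Cont sEV. Such a higher level without overlap was found for 10.9% of all tested genes in TIS sEV vs Cont sEV and 11.3% in TIS sEV vs No sEV. TOB1, an antiproliferative protein that represses SMAD activity, was at 31.4, 29.02 and 29.4 TPM in TIS sEV cells, 33.6, 32.8 and 34.4 in Cont sEV cells and 30.97, 31.2 and 29.9 in No sEV cells. The Cont sEV libraries of TOB1 lay above the other 6. Of all tested genes, 4.47% lay lower without overlap in TIS sEV vs Cont sEV and 6.72% higher in Cont sEV vs No sEV. The TOB1 log2 fold change was -0.16 (95% interval -0.258 to -0.0634, limma, adjusted p = 0.253) in TIS sEV vs Cont sEV.

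Of 16 target genes, 10 were tested, and their median log2 fold change was 0.0183 in TIS sEV vs Cont sEV, 0.00765 in TIS sEV vs No sEV and 0.0821 in Cont sEV vs No sEV. RUNX2, a bone-lineage transcription factor gene, was at 11.6 ± 0.135 TPM in TIS sEV cells, 11.1 ± 0.506 in Cont sEV cells and 11.5 ± 0.257 in No sEV cells. HEY1, a target shared with Notch, was at 3.21 ± 0.242, 3.54 ± 0.370 and 3.38 ± 0.253 TPM in the same groups. Of the E proteins that ID proteins hold, TCF3 was at 53.7 ± 0.938, 52.5 ± 1.24 and 51.9 ± 1.81 TPM and TCF12 at 33.5 ± 0.973, 35.6 ± 2.86 and 34.2 ± 0.481 TPM, while TCF4 was at 1.502 ± 0.0528, 1.57 ± 0.128 and 1.23 ± 0.113 TPM (SD, n = 3 each).

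**Figure D4:**
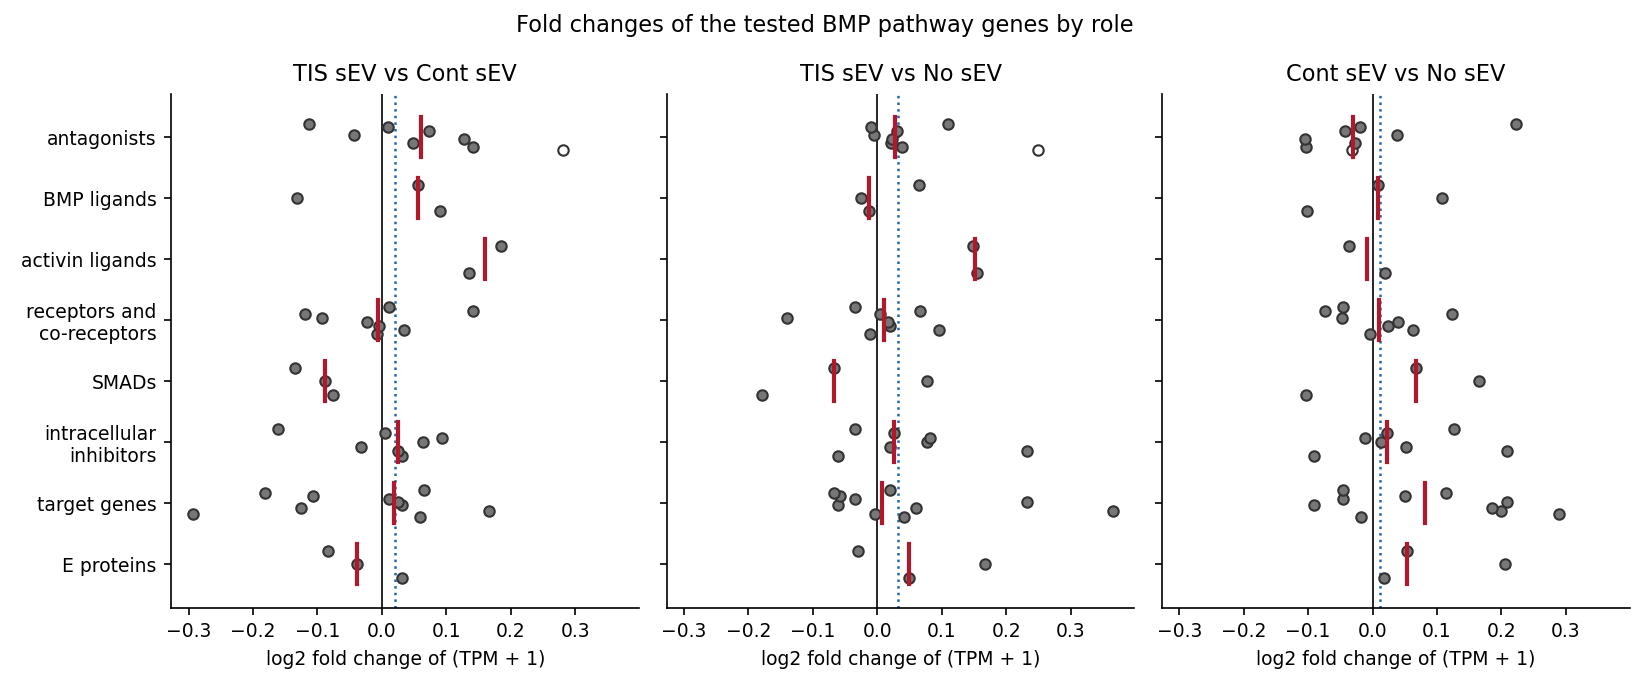
Log2 fold change of (TPM + 1) of the 41 tested pathway genes by role in TIS sEV vs Cont sEV, TIS sEV vs No sEV and Cont sEV vs No sEV. There is 1 circle per gene in each list that holds it, and the open one is NOG. SMAD6, SMAD7 and BAMBI are drawn among the target genes and in another list too. Red bars are list medians, with NOG in that of the antagonists, and the dotted line is the median over all 13879 genes. NOG, at 0.28 and 0.25, lies right of the other antagonists in the panels with TIS sEV, and the target gene medians are 0.0183, 0.00765 and 0.0821.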

How the data were processed

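The deposited values are gene-level TPM by the authors. Per the submitters' processing notes, FastQC 0.11.9, Trim Galore 0.6.6, Salmon 1.4.0, DESeq2 1.28.0 and the build GRCh38.p13 were used; they name no annotation release. The depth per library is unknown, so no count model was fitted. Symbols were matched by Ensembl identifier (99.58% of 60719). Values were transformed to log2(TPM + 1), genes reaching 1 TPM in 3 or more libraries were kept, and limma 3.58.1 in R 4.3.3 (variance trend, two-sided, Benjamini-Hochberg over all genes, threshold 0.05) fitted all 9 libraries in 1 model. The limma fit alone was tested on simulated data, with planted log2 changes larger than the fold changes of the members. Correlations used exact permutation of library pairings. Gene positions are from GENCODE 29 on GRCh38, promoters from RefSeq.

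The members and lists were chosen with earlier results of these data known. Outside the 10 genes, the text names the up to 3 genes of highest mean TPM per list, the 5 genes most like NOG and ID1 (1 of those for ID1 is not reported here), and genes listed at 0, which were chosen after their values were seen. Alternatives were a pseudocount of 0.1, no filter, quantile and median-ratio scaling, dropping genes of the mitochondrial genome, a replicate block, only the 6 libraries compared, and leaving out each library.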

Additional observations from a re-analysis of the deposited data

How the results depend on the processing

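No member passed the threshold under any alternative, NOG aside, which was not tested. NOG kept its direction under all of them, but it was chosen by its higher level with TIS sEV. Its TIS sEV libraries all lay above the other 6, so leaving out 1 library could not reverse the comparisons with TIS sEV. In Cont sEV vs No sEV the NOG log2 fold change ran from -0.0672 to -0.00023. The count of genes called over the whole table in TIS sEV vs Cont sEV was 13, with 9 under the replicate block, 3 from the 6 libraries compared alone and 2 to 13 with 1 library left out. In TIS sEV vs No sEV it was 1, with 9 without the filter, 2 from the 6 libraries compared and 1 to 2 with 1 library left out. In Cont sEV vs No sEV it was 0, with 7 without the filter and 0 to 1 with 1 library left out. The same replicate numbers did not go together: correlations of their deviations lay from -0.0479 to 0.0791, and the block changed no call among the members.

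Of 210 member fold changes under other settings, 6 changed sign, and of 270 with 1 library left out, 29 did, none of them past the threshold. BMPR1A in Cont sEV vs No sEV was 0.00152 without mitochondrially encoded genes. BMPR2 in TIS sEV vs No sEV was -0.0147 after median-ratio rescaling and -0.0285 after quantile normalization, which gave -0.00952 for SMAD7 in TIS sEV vs Cont sEV and -0.00642 for ID1 in TIS sEV vs No sEV. ID2 in TIS sEV vs No sEV was 0.000251 with a pseudocount of 0.1. With 1 library left out, log2 fold changes in TIS sEV vs Cont sEV ran from -0.0762 to 0.0729 for BMPR1A, -0.0590 to 0.0141 for BMPR2, -0.156 to 0.166 for SMAD6, -0.0872 to 0.155 for SMAD7 and -0.0377 to 0.132 for ID1. In TIS sEV vs No sEV they ran from -0.112 to 0.0433 for BMP4, -0.0697 to 0.0692 for BMPR1A, -0.0298 to 0.0539 for BMPR2, -0.247 to 0.0746 for SMAD6, -0.0558 to 0.0950 for ID1 and -0.140 to 0.117 for ID2. In Cont sEV vs No sEV they ran from -0.0475 to 0.0656 for BMPR1A, -0.00702 to 0.0761 for BMPR2, -0.239 to 0.0220 for SMAD6 and -0.0912 to 0.0287 for ID1. Their causes were not tested. TPM keep no depth, so counting error for the low genes ID2, SMAD6 and ID3 is unknown.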
